A study of Mus musculus with 2 samples.

Results

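The let-7 family was described in ureteric bud cells of the embryonic mouse kidney through 9 miRNA probes, chosen by name: mmu-let-7a, mmu-let-7b, mmu-let-7c, mmu-let-7d, mmu-let-7e, mmu-let-7f, mmu-let-7g, mmu-let-7i and mmu-miR-98, written below without the mouse prefix. They are 9 of the 1040 miRNA probes on the array. Each name stands for the guide arm, the strand of the hairpin that is usually kept. Opposite arms, marked by an asterisk, were not members. Total RNA came from E15.5 (embryonic day) kidneys of Rosa26YFP; Hoxb7Cre embryos, in which a Cre recombinase under Hoxb7 control switches on a yellow reporter in the ureteric bud and its derivatives. The kidneys were digested to single cells and sorted on the reporter. The data hold 1 group with 2 samples, replicate 1 stained with Cy3 and replicate 2 with Cy5, so that sample and dye cannot be told apart. All samples share this genotype and age, and no other cell type was analysed here. The labels do not say how many embryos were pooled, nor that the samples came from separate litters, so the spread between them may be technical.

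let-7 miRNAs are small RNAs that bind messenger RNAs through their seed, bases 2 to 8 from the 5′ end, and lower the output of those messengers. They accumulate as cells leave the progenitor state, and the RNA-binding proteins Lin28a and Lin28b block the maturation of their precursors. Known targets include Hmga2, Lin28 itself and Ras and Myc family genes. In the mouse kidney, prolonged Lin28b activity is known to lengthen the period of nephron formation, and loss of the miRNA-processing enzyme Dicer in the Hoxb7-Cre lineage disturbs ureteric bud branching.

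The target sequences of the 9 probes are shown because they differ by so few bases that signal can be shared between them. They are as given in the scanner tables, 5′ to 3′, with the seed in capitals.
let-7a: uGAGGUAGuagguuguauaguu
let-7b: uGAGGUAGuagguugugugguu
let-7c: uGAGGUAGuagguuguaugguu
let-7d: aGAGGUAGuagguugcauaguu
let-7e: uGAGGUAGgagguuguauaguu
let-7f: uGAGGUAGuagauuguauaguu
let-7g: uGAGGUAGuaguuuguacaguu
let-7i: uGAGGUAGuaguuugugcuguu
miR-98: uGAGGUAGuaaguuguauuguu

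All 9 targets are 22 bases long, carry the same seed and match a mature 5p miRNA of mouse RefSeq (GRCm38.p6). Counted from base 1 at the 5′ end, they differ from let-7a at base 1 or from base 9 to base 19. Against let-7a, let-7c carries A19G, let-7e U9G and let-7f G12A. let-7b carries A17G and A19G, let-7d U1A and U16C, let-7g G12U and U18C, and miR-98 G11A and A19U. let-7i is the most distant from let-7a, with G12U, A17G, U18C and A19U. Of the 36 pairs of members, 4 differ by 1 base and 10 by 2 bases, and the widest gap is 6 bases, between let-7d and let-7i.

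Of the 9 members, 8 stood above background in both samples and miR-98 in neither. A spot passed when its raw intensity lay over a limit set on the 560 blank spots of its own array, their mean with 3 SD added. The limit was 303.2 units in replicate 1 and 81.1 units in replicate 2. In replicate 1 the brightest blank spot gave 916.8 units and the next 243.25 units. Without the brightest blank spot of each array the limits would be 243.5 and 80.4 units. Detection of a probe needed 50% or more of its 3 spots to pass. Over all 1040 miRNA probes, 5.96% were detected in both samples, and the share was 88.9% for the family and 5.24% for the 1031 other probes. In replicate 1 alone 8 members and 7.88% of all probes passed, and in replicate 2 alone 8 members and 6.15% of all probes. No test of the list was made, as its members share sequence.

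The brightest probes of the family were those of let-7d, which is transcribed with let-7a and let-7f, and let-7i, which has a locus of its own. let-7d gave 1777, 1529.5 and 1335 units at its spots in replicate 1, and 474, 563 and 578 units in replicate 2. let-7i gave 1489, 1710.4 and 1650.3 units in replicate 1, and 485, 445 and 518 units in replicate 2. The spot ranges of let-7d and let-7i overlapped on both arrays, so these probes were not separable in brightness. Every one of their spots lay above the blank limit.

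A middle group was formed by let-7a, let-7b, let-7c and let-7e, again with every spot above the limit. let-7a gave 878, 1066 and 964 units in replicate 1, and 373, 459 and 424 units in replicate 2. let-7c, which differs from let-7a by A19G, gave 890.1, 1005 and 900.2 units in replicate 1, and 308, 405 and 413.5 units in replicate 2. The spot ranges of let-7a and let-7c overlapped on both arrays. let-7b gave 812, 858 and 818 units in replicate 1, and 275, 308 and 338 units in replicate 2. let-7e gave 668, 849 and 761 units in replicate 1, and 377, 445 and 407 units in replicate 2. let-7e was thus the dimmest of this group in replicate 1 and stood between let-7a and let-7c in replicate 2.

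The remaining members were dim. let-7f gave 410.5, 472 and 411 units in replicate 1, and 145, 166 and 171 units in replicate 2. Its ranges met those of no other member. let-7g gave 293, 361 and 329 units in replicate 1, and 85.2, 92.1 and 90.0 units in replicate 2. Of its 6 spots 1 fell short of the limit, and its medians were 1.09 and 1.11 times the limit. All of its replicate 1 spots exceeded 243.5 units, the limit without the brightest blank spot. miR-98 gave 216, 216 and 212 units in replicate 1, and 45.3, 50.05 and 46.5 units in replicate 2. In replicate 1 its median exceeded 84.3% of blank spots, and in replicate 2 it exceeded 2.68% of them. All its spots lay below the median miRNA spot of the array, 223.9 units in replicate 1 and 53.1 units in replicate 2. At this background miR-98 could not be detected, and its absence is not shown either.

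**Figure D1:**
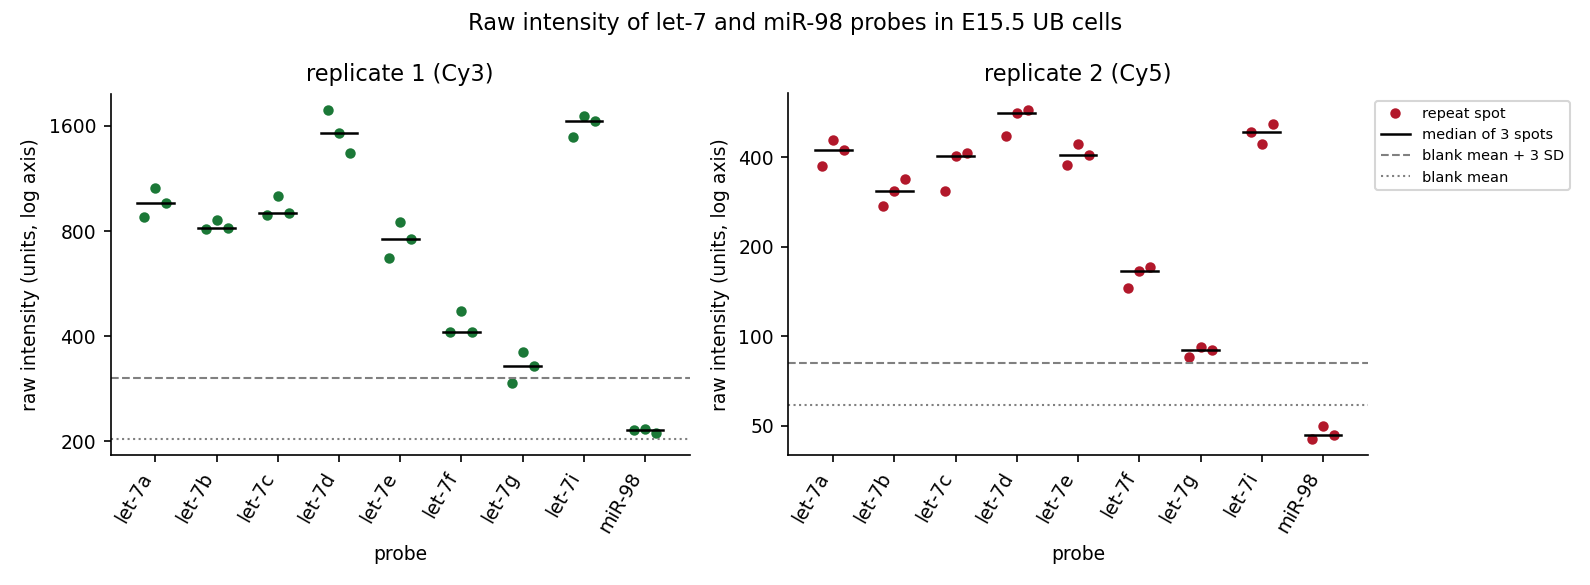
Raw intensity in units (log axis) of the 3 repeat spots of each let-7 and miR-98 probe, with replicate 1 (Cy3) on the left and replicate 2 (Cy5) on the right. Black bars are medians, the dashed line is the blank limit (303.2 and 81.1 units) and the dotted line the blank mean. All spots of 7 members clear the limit, let-7g straddles it in replicate 1, and miR-98 lies near the blank mean.

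The order of brightness was alike on both arrays at its ends and not in its middle. On both arrays let-7d and let-7i came first, let-7f seventh, let-7g eighth and miR-98 ninth. In replicate 1 the order between them was let-7a, let-7c, let-7b and let-7e, and in replicate 2 let-7a, let-7e, let-7c and let-7b. Neighbours in replicate 2 overlapped from let-7d down to let-7b, and none overlapped below let-7b. In replicate 1, let-7d stood clear of let-7a and let-7c of let-7b, beyond the spread of the spots. The spots of an array are technical repeats, and probes differ in affinity, so this is an order of probes and not of abundance. Coefficients of variation between spots, taken after subtracting the median blank, had a median of 13.9% in replicate 1 and 11.8% in replicate 2 over the 8 detected members. Over all 62 miRNAs detected in both samples the medians were 8.09% and 11.8%.

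Normalized signals placed 6 members more than 2-fold above blank. Intensities were background-corrected, log2-transformed and quantile-normalized, and the blank level of each array was subtracted. The treat test of limma, adjusted by Benjamini-Hochberg across the 1040 probes, called 3.46% of all probes and 6 members: let-7i, let-7e, let-7d, let-7c, let-7b and let-7a. In replicates 1 and 2 the log2 signal of let-7d was 9.70 and 9.90 (mean 9.80 ± 0.14, SD, n = 2), or 3.54 ± 0.31 log2 units over blank (SE; limma adjusted p = 7.98e-14). That of let-7i was 9.82 and 9.73 (9.78 ± 0.06), or 3.51 ± 0.31 over blank (limma adjusted p = 9.70e-14). let-7a stood at 8.89 and 9.50 (9.20 ± 0.43) and let-7c at 8.69 and 9.44 (9.07 ± 0.53). let-7e was at 8.30 and 9.46 (8.88 ± 0.82), the widest spread of the family. let-7b was at 8.49 and 9.07 (8.78 ± 0.41), and lay lowest of the 6 over blank, at 2.52 ± 0.30 (limma adjusted p = 1.58e-05).

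let-7f, at 7.39 and 8.43 (7.91 ± 0.74, SD, n = 2), lay 1.64 ± 0.31 log2 units over blank but did not pass (limma adjusted p = 0.441, unadjusted p = 0.0182). let-7g, at 7.0 and 7.42 (7.21 ± 0.30), lay 0.95 ± 0.32 over blank, under the 2-fold bound (limma adjusted p = 1). The difference of miR-98 from blank was -0.12 ± 0.39 (limma adjusted p = 1), with signals of 6.21 and 6.06. These p-values rest on 2 samples and on a variance that the fit borrows across probes. Neither they nor the SE measure the spread of a single probe. Without normalization between the arrays 0 members passed (limma treat), with 2 at an unadjusted p under 0.05, and a 4-fold bound left 2, let-7d and let-7i. Of all 1040 probes, 2 passed without normalization and 13 with the 4-fold bound, against 36 in the main run.

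**Figure D2:**
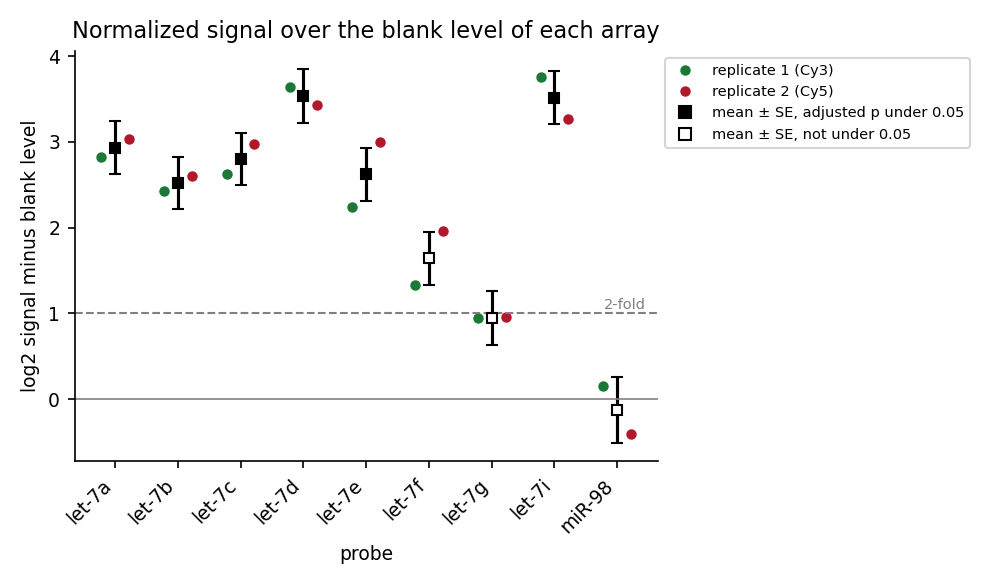
Normalized log2 signal minus the blank level of the array for each let-7 and miR-98 probe. Coloured points are the samples, squares the mean of both with the standard error of limma's fit, filled where the treat test against 2-fold (dashed line) gave an adjusted p under 0.05. The 6 filled squares lie between 2.52 and 3.54, let-7f at 1.64, let-7g at 0.95 and miR-98 at -0.12.

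Near-identical targets did not give the same signal throughout, and the sequences listed above show where they part. let-7f differs from let-7a by G12A only, and its medians were 411 and 166 units in replicates 1 and 2, against 964 and 424 units at the let-7a probe. miR-98 differs from let-7a by G11A and A19U, and its medians of 216 and 46.5 units lay at the level of blank spots while the let-7a, let-7c and let-7e probes were bright. let-7g and let-7i differ by A17G and A19U, written from let-7g to let-7i, and their medians were 329 and 90.0 units for let-7g and 1650.3 and 485 units for let-7i. The probes of members 1 or 2 bases apart thus did not all share a signal, whereas let-7a and let-7c, 1 base apart, could not be separated. How much of any member's signal came from another member was not tested. The dim members were low in GC content, as let-7f and miR-98 have 7 G or C bases of 22 and let-7g has 8. Brightness did not follow GC content throughout. let-7f was brighter than let-7g, let-7a also has 8, and let-7b, with 10, was not among the brightest. The remaining members have 9. The part of GC content in the signals was not tested.

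Other probes that carry the let-7 seed gave no signal above the limit. The array held 10 targets with the full seed, the 9 members and miR-1961, whose sequence is short and is shown for its overlap with let-7g.
miR-1961: uGAGGUAGuaguuagaa
The 17 bases of miR-1961 match let-7g over the first 13. It gave a median of 211 units in replicate 1 and 50.9 units in replicate 2, at the blank level. miR-202-3p, a miRNA best known from the gonads, shares bases 2 to 7 and departs at base 8. It gave 224 and 49.5 units, also below the limits.

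The members are encoded by 12 genes in mouse RefSeq (GRCm38.p6), so that a probe can read more than 1 locus. let-7a comes from Mirlet7a-1 and Mirlet7a-2, let-7c from Mirlet7c-1 and Mirlet7c-2, and let-7f from Mirlet7f-1 and Mirlet7f-2. The let-7a target matched a mature miRNA of Mirlet7a-1 only, so Mirlet7a-2 is assigned here by its gene name. On the minus strand of chromosome 13 lie Mirlet7d (chr13:48536012-48536114), Mirlet7f-1 (chr13:48537829-48537917) and Mirlet7a-1 (chr13:48538179-48538272), with gaps of 1714 and 261 bases. The probes for let-7d, let-7f and let-7a were detected, but let-7a and let-7f each have another gene elsewhere. Mirlet7c-2 (chr15:85706603-85706697) and Mirlet7b (chr15:85707319-85707403) lie 621 bases apart on the plus strand within the span of the long noncoding gene Lncppara. The probes for let-7c and let-7b were detected, but the let-7c signal can also come from Mirlet7c-1. Mirlet7i (chr10:122985640-122985724, minus strand) lies in no other annotated gene. Mirlet7g (chr9:106178840-106178927, plus strand) lies within the span of Wdr82, which encodes a subunit of histone methyltransferase complexes. The table gives gene spans, so exons and introns were not told apart.

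The X-linked pair differed in detection. Mirlet7f-2 (chrX:151912346-151912428) and Mir98 (chrX:151913214-151913321) lie 785 bases apart on the plus strand within the span of Huwe1, which encodes a ubiquitin ligase. let-7f was detected at 1.35 and 2.05 times the limit in replicates 1 and 2, and miR-98 was not, at 0.713 and 0.574 times the limit. Because let-7f also comes from chromosome 13, its signal cannot be assigned to the X-linked gene.

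Of 5 miRNAs taken as cluster partners of let-7 genes, members of the miR-99, miR-100 and miR-125 families, 3 were detected in both samples, against 5.96% of all probes. Mir135a-1, 24626 bases from Mirlet7g, was not among these 5. Its miRNA, mmu-miR-135a, was named after its values were seen, and at 216 and 53.5 units in replicates 1 and 2 it was not detected. Mirlet7e (chr17:17830352-17830444, plus strand, within the span of Spaca6) lies 94 bases from Mir99b and 367 bases from Mir125a, and the probes for all 3 were detected. Their medians in replicates 1 and 2 were 761 and 407 units for let-7e, 1744 and 392 units for miR-99b, and 416 and 177 units for miR-125a-5p, the mammalian relative of nematode lin-4. miR-99b passed the treat test, at 3.40 ± 0.31 log2 units over blank, and miR-125a-5p did not, at 1.68 ± 0.31 (limma adjusted p = 0.335). Mirlet7c-1 (chr16:77599657-77599750) lies 656 bases from Mir99a and 46522 bases from Mir125b-2. Mirlet7a-2 (chr9:41536716-41536811, within the span of Mir100hg) lies 5211 bases from Mir100 and 45114 bases from Mir125b-1. miR-99a, at 249 and 55.9 units, and miR-100, at 214 and 55.3 units, were below the limits. In replicate 1 the median of miR-99a exceeded 243.5 units, the limit without the brightest blank spot. In replicate 2 it lay under that limit, 80.4 units. miR-125b-5p, made by both Mir125b genes, was detected close to the main limits, at 326 and 96.2 units.

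At these loci on chromosomes 9 and 16, let-7a and let-7c were therefore detected where the neighbouring miR-100 and miR-99a were not. let-7a and let-7c each have another gene on chromosomes 13 and 15, and the array cannot say which gene gave the signal.

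**Figure D3:**
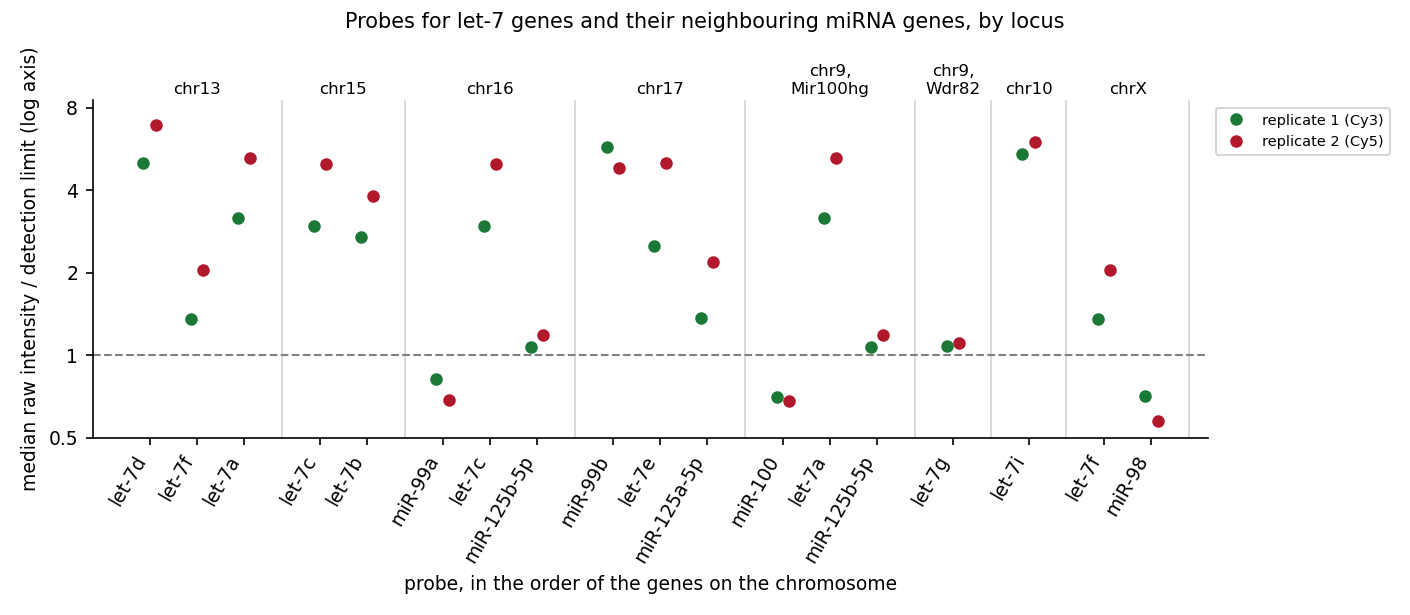
Median raw intensity divided by the detection limit (log axis) for the probes of each let-7 locus, ordered along the chromosome, with replicate 1 in green and replicate 2 in red. let-7a, let-7c, let-7f and miR-125b-5p appear at both of their loci with the same values. miR-99a, miR-100 and miR-98 lie under the dashed limit of 1, and all other probes shown lie above it.

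No opposite arm of the family was detected. The array held 11 probes for opposite arms, 0 of which passed in either sample, and 0 of their 66 spots exceeded a limit. Of the 330 probes named with an asterisk 0.909% were detected in both samples, so a count of 0 among 11 is near the background. Their medians ran from 204 units for let-7a-1* to 217.0 units for let-7i* in replicate 1, and from 51.2 units for let-7f-2* to 59.2 units for let-7a-2* in replicate 2. Guide arms of the same hairpins reached 1650.3 units in replicate 1 and 563 units in replicate 2. The opposite arm of let-7d, the brightest guide in replicate 2, gave 210.1 and 53.0 units in replicates 1 and 2. The target of let-7a-1* is also the opposite arm of Mirlet7c-2. miR-98 and miR-98* were both at the blank level, miR-98* at 215 and 53.4 units.

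**Figure D4:**
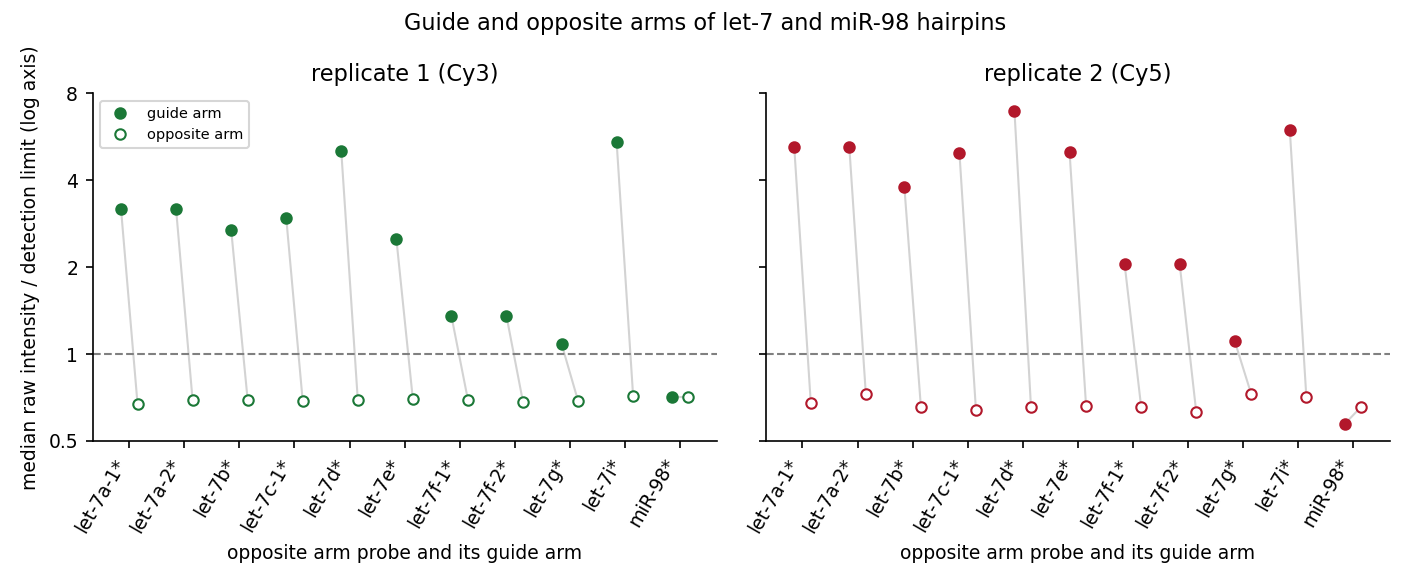
Median raw intensity divided by the detection limit (log axis) of guide arms (filled) and opposite arms (open) of let-7 and miR-98 hairpins, with replicate 1 on the left and replicate 2 on the right. Opposite arms lie at 0.631 to 0.729 times the limit, while guide arms other than miR-98 lie at 1.09 to 6.93 times.

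Relative to the other detected miRNAs, replicate 1 was lowest against replicate 2 at let-7e and let-7f, among the members. After subtraction of the median blank, replicate 1 exceeded replicate 2 by a median of 3.74 times over the 62 miRNAs detected in both samples. The ratio was 1.60 for let-7e, 1.93 for let-7f, 2.01 for let-7c, 2.08 for let-7a, 2.46 for let-7b and 2.63 for let-7d. It was 3.39 for let-7i and 3.99 for let-7g. Thus 7 of the 8 detected members, and 24 of the 54 other detected miRNAs, lay below that median, and 6 members were among the 12 lowest ratios. These counts depended on the scaling. With quantile normalization 6 members and 25 other miRNAs lay below the median difference, and 5 members were among the 12 lowest. In the deposited processed values 5 members and 26 others lay below it, and 3 members were among the 12 lowest. miR-125a-5p, the neighbour of let-7e, had a ratio of 1.80, and its place among the 62 was between let-7e and let-7f. With 1 sample per dye these ratios have no replicate check and no test.

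After quantile normalization the log2 difference, replicate 1 minus replicate 2, was -1.16 for let-7e, -1.04 for let-7f, -0.75 for let-7c, -0.61 for let-7a, -0.58 for let-7b, -0.42 for let-7g, -0.20 for let-7d and 0.08 for let-7i. The median over the 62 was -0.20. Without normalization the differences of these 8 members were all above 0, from 0.62 for let-7e to 1.63 for let-7i, around a median of 1.43 over the 62. The sign therefore depended on the scaling. Under 9 ways of taking the difference let-7e ranked from 1 to 4 of 62, counted from the lowest, and let-7f from 3 to 5, whereas let-7c ranged from 6 to 32 and let-7g from 8 to 33.

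In the authors' deposited processed intensities let-7e had the lowest and let-7i the highest difference of the detected members, as after quantile normalization, whereas let-7g had the highest blank-subtracted ratio. These whole numbers, on a linear scale with background removed, were 973 and 2399 for let-7e in replicates 1 and 2, and 387 and 885 for let-7f. They were 192 and 325 for let-7g, 1372 and 1718 for let-7b, 1808 and 2268 for let-7a and 1769 and 2040 for let-7c. let-7d stood at 2881 and 2814, and let-7i at 3662 and 2622. let-7i and let-7d were thus higher in replicate 1 and the other 6 detected members higher in replicate 2, with log2 differences of -1.30 for let-7e and 0.48 for let-7i. miR-98 was listed at 9 and 2, beside array medians of 10 and 9. Of the cluster partners below the limits, miR-99a was listed at 54 and 47 and miR-100 at 10 and 17. How these values were scaled is not given in the sources used here.

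**Figure D5:**
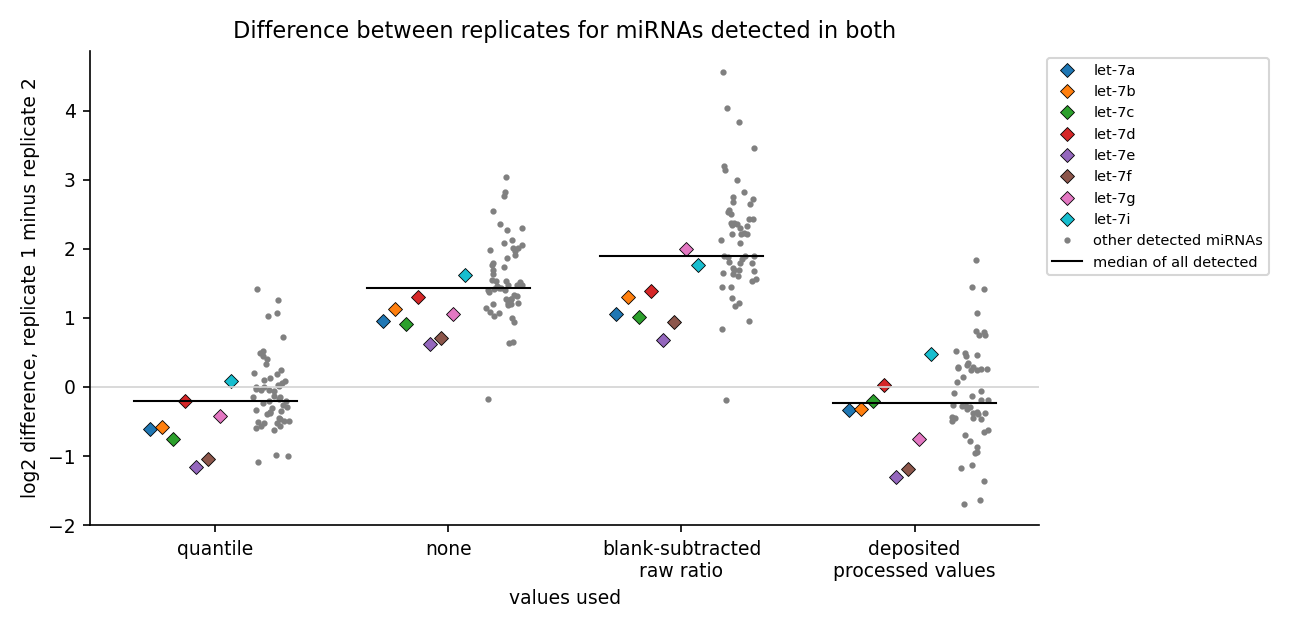
Log2 difference, replicate 1 minus replicate 2, for the 8 detected let-7 members (diamonds) and the 54 other detected miRNAs (grey points), with quantile normalization, no normalization, the raw ratio after blank subtraction and the deposited processed values. Black lines are medians over all 62, and let-7e and let-7f lie among the lowest points in every column.

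The probes most like the family in level were those of miR-10a, miR-17, miR-20a, miR-26a and miR-720. They were the 5 detected probes outside it with the shortest distance, in log2 raw intensity over the blank median on 2 arrays, from the median of the 8 detected members (2.08 in replicate 1 and 2.80 in replicate 2). The nearest, miR-10a, lay at 2.31 and 2.44, a distance of 0.42, and the fifth, miR-720, at 1.97 and 2.14, a distance of 0.66. With 2 samples this likeness describes level alone.

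The label of the cells was set against marker miRNAs. Of 5 epithelial markers of the miR-200 family, miR-200b, miR-200c and miR-429 were detected in both samples, and miR-200a and miR-141 were not. Of 13 markers of endothelium, blood, mesenchyme and nephron, 0 were detected in both samples and 1, miR-214, in replicate 2 alone. This mesenchyme marker had medians of 281 units in replicate 1 and 88.0 units in replicate 2. Both medians exceeded the limits without the brightest blank spot of each array, 243.5 and 80.4 units, so under those limits miR-214 passed in both samples. With 5.96% of all probes detected, a count of 0 among 13 is near the background. The summed raw intensity of the 13 markers was 2894 units in replicate 1 and 705 units in replicate 2. For 13 probes at the blank median it would be 2641 and 760 units. The median miRNA spot of the array also lay above the median blank spot in replicate 1, at 223.9 against 203.1 units. In replicate 2 it lay below, at 53.1 against 58.4 units. The number of arrays limits the precision of all these values. With bulk RNA, fewer cells of a type and less RNA per cell cannot be told apart.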

How the data were processed

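From 4 µg of total RNA per sample, per the labels' protocols, LC Sciences isolated RNA under 300 nt, tailed and tagged it and stained it with Cy3 or Cy5. The authors deposited, per the file headers, the mean intensity of each of 3968 spots per array and the standard deviation within the spot, with no background removed: blank spots averaged 203.9 and 58.9 units in replicates 1 and 2. They also deposited a table of processed intensities. Over 62 detected miRNAs their ratio to scanner intensity minus blank had a median of 1.66 in replicate 1 (10th to 90th percentile 1.37 to 2.30) and 8.00 in replicate 2 (5.95 to 9.94). Among the detected members it ran from 1.52 to 2.54 and from 5.58 to 10.3, so the values are not scanner intensities times 1 factor. How they were normalized is not given in the sources used here.

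Detection used raw intensities against blank spots. For signals, all spots were corrected with normexp (offset 50), and the 3120 miRNA spots were log2-transformed, quantile-normalized and reduced to the median of 3 spots. The blank median was carried through each array's map to normalized values. limma's treat test (2-fold bound, trend in the variance, threshold 0.05) was run on all 1040 probes with R 4.3.3 and limma 3.58.1. Its prior degrees of freedom were infinite. Sequences and loci came from RefSeq (GRCm38.p6). Named were all members, their opposite arms, cluster partners, seed-sharing probes and the 5 nearest probes. The members and lists were chosen with earlier results of these data known.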

Additional observations from a re-analysis of the deposited data

How the results depend on the processing

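The count of 8 detected members became 7 at 6 blank SD and with all repeat spots required, and 6 at 10 blank SD, and was 8 under the other alternatives, including either replicate alone and a limit without the brightest blank spot, which was chosen after seeing the data. Of all 1040 probes 5.96% passed in the main run and 5.38% with all repeat spots required. The share was 4.33% at 6 blank SD and 3.17% at 10 blank SD, and 6.15% to 7.21% under the other limits. let-7g was the member lost first, then let-7f. No opposite arm passed under any of these. The 3 detected cluster partners became 2 at 6 blank SD and with all repeat spots required, where miR-125b-5p was lost, and 1 (miR-99b) at 10 blank SD. The 6 members passing limma's treat test became 0 without normalization and 0 with median centring (2 members at an unadjusted p under 0.05 in each). They became 2 with a 4-fold bound, and 6 or 7 under 5 others. Over all 1040 probes the test called 36 in the main run, 2 without normalization, 2 with median centring and 13 with the 4-fold bound. The 5 others called 28 to 65 probes. Of these, the fit kept to probes above the limit on at least 1 array called 44 of 84. In the main run the 6 members that passed lay 2.52 to 3.54 log2 units over blank (SE 0.30 to 0.31). Without normalization the same members lay 2.675 to 3.61 over blank (SE 1.43 to 1.54). The cause of the lower counts was not tested. Differences between replicates turned positive without normalization for let-7g (1.06), let-7f (0.71), let-7e (0.62), let-7d (1.30), let-7c (0.91), let-7b (1.13) and let-7a (0.96). With median centring they were 0.26 for let-7a, 0.43 for let-7b, 0.21 for let-7c, 0.60 for let-7d, 0.018 for let-7f and 0.36 for let-7g. let-7d was at 0.034 in the deposited processed values, and miR-98 was at -0.26 with blank subtraction. A treat test without a replicate was not run, since it leaves no residual degrees of freedom. No paired analysis was possible because the study has a single group.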

Other observations

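In replicate 1 the repeat spots of most detected let-7 members were brightest in the middle of the array, as were those of let-7 opposite arms in the same columns. Each detected member had 1 spot in column 2, 1 in column 12 and 1 in column 22, whereas miR-98 lay in columns 10, 20 and 30. In replicate 1 the middle spot was the brightest for 7 of the 8 detected members, all but let-7d, and for 32 of all 62 detected miRNAs. It was also the brightest for every let-7 opposite arm, as for let-7a-1* at 190.9, 230.5 and 203.6 units. The same held for miR-100, miR-125a-5p and miR-125b-5p. These probes also lie in columns 2, 12 and 22, whereas the 62 include probes in other columns. The median of 12 blank spots in the same columns was 178.0 units in column 2, 210.6 in column 12 and 201.7 in column 22. The left spot of let-7g, at 293 units, was the only spot of a detected member that missed the limit of 303.2 units. It exceeded 243.5 units, the limit without the brightest blank spot. In replicate 2 the middle spot was the brightest for 3 of 8 members and 22 of 62 detected miRNAs, and the right spot for the other 5 members, let-7b, let-7c, let-7d, let-7f and let-7i. The blank medians there were 63.1 units in column 2, 61.5 in column 12 and 60.9 in column 22. The part of position in these values was not tested.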
